A study of Homo sapiens with 15 samples.

Results

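The cytokine genes described here were IL11, IL6, LIF, IL1A, IL1B, IL18, TNFSF15, TNFSF10 and CSF1, all of which an epithelial cell can make. The genes were chosen by name with earlier results in view, in which IL11 and TNFSF15 stood among the largest differences between dexamethasone and non-treated cells and between mifepristone and dexamethasone. All probe sets whose annotated symbol is 1 of these names were taken, where a probe set is the group of short probes on the array that reports 1 transcript. This gave 18 probe sets of 9 genes, out of 41097 probe sets with a single symbol and 19775 genes.

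A549 cells, an established line of human lung adenocarcinoma epithelium, were cultured in F12K with serum treated with charcoal, which removes steroids. The 5 groups of 3 arrays were non-treated cells, cells given dexamethasone, a synthetic glucocorticoid, for 6 hours, and 3 groups given a compound for 48 hours as well as the 6 hours of dexamethasone. That compound was mifepristone, the match polyamide or the mismatch polyamide. Mifepristone is an antagonist of the glucocorticoid receptor. Polyamides are synthetic molecules that bind the minor groove of DNA, and by the title of the series the polyamide is specific for the GRE, the DNA element that the glucocorticoid receptor binds. All groups are the same cancer line, no group received a compound without dexamethasone, and the labels name neither doses nor a vehicle. Replicate arrays may or may not stem from separate cultures, so that p-values reflect how far these arrays differ among themselves, possibly for technical reasons alone.

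Cytokines are secreted or membrane-bound proteins that carry signals between cells. IL11, IL6 and LIF signal through receptors that share the chain gp130, encoded by IL6ST, and then through JAK kinases and STAT3. IL1A, IL1B and IL18 act through receptors that recruit MYD88 and IRAK proteins, while TNFSF15 (also called TL1A) and TNFSF10 (TRAIL) are ligands of TNF-type receptors, and CSF1 is a growth factor of macrophages. The glucocorticoid receptor is known to lower many inflammatory cytokine genes, often without binding a response element of its own at the gene.

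IL11 and TNFSF15 moved most, so the DNA before a RefSeq start of each is shown, 250 bases upstream in GRCh38.p14, read 5′ to 3′ on the gene's strand. Capitals mark matches to TGANTCA, the AP-1 motif, searched on both strands together with 5 other motifs.
IL11: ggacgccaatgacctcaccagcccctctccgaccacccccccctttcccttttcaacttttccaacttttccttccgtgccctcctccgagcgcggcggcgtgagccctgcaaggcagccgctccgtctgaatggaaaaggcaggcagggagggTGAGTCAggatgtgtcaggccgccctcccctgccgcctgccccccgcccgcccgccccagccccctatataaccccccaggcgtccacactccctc
TNFSF15: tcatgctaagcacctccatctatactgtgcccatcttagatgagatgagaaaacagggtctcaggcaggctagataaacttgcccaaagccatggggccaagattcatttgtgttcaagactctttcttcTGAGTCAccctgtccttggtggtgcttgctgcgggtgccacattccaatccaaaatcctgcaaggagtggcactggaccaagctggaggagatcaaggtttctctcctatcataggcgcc

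The IL11 window lies at chr19:55370464-55370713 on the minus strand, next to the gene's span of chr19:55364382-55370463. That of TNFSF15 lies at chr9:114792531-114792780 on the minus strand, inside the gene's span of chr9:114784635-114806039, so it belongs to an internal start 13509 bases from the outer end of the gene. TGAGTCA stood at positions -96 to -90 of IL11 and at -120 to -114 of TNFSF15, counted back from the start. Windows of the 250 bases before and 50 after a start were held for 6 of the 9 genes, and TGANTCA occurred in 3 of these 6, the third being IL1A, against 7.71% of all 35116 windows. The receptor motifs TGTTCT and ACANNNTGT occurred in none of the 6 genes' windows, against 14.8% and 5.37% of all windows. The CRE motif TGACGTCA was likewise in none of the 6, against 1.85%. The NF-kappaB motif was matched in IL6 at -73 to -64 and in 11.3% of windows, and TATAAA in IL1A and TNFSF10 and in 11.5%. A match of letters is a description and no test of binding, and no match speaks of these windows alone.

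The 15 arrays held 54675 probe sets each. Signals are MAS5 intensities on a linear scale, quantile normalized here so that all arrays have the same distribution. Differences are in log2(signal + 16), with their standard error (SE), and this scale understates the change of low signals. The deposited signals were brighter on the mifepristone arrays, with 2% trimmed means of 119.1 to 147 against 87.2 to 108 in non-treated, dexamethasone and match cells, and 91.8 to 137 in mismatch cells. Of 6 epithelial markers, 5 lay above the 40th percentile of every array, and CLDN4 did on 9 of 15. KRT18 and KRT8, with mean signals of 8853 and 5896, make up most of the epithelial sums. Over the arrays EPCAM ran from 152 to 724 and CDH1 from 122 to 403. Summed signals of the epithelial list were 17660 to 17691 with dexamethasone, above all other groups, which had 15531 to 15998 in non-treated, 15201 to 15871 in mifepristone, 14347 to 15668 in match and 16409 to 17061 in mismatch cells. For 4 leukocyte markers the sums were 57.9 to 84.01 in non-treated, 47.6 to 70.0 in dexamethasone, 72.9 to 91.4 in mifepristone, 76.7 to 108 in match and 85.8 to 91.8 in mismatch cells. PTPRC, which defines leukocytes, lay above the 40th percentile on 2 of 15 arrays, CD3E on 9, CD14 on 13 and ITGAM on 14. For 6 fibroblast markers the sums were 162 to 198 in non-treated, 130 to 187 in dexamethasone, 159.7 to 215 in mifepristone, 278 to 324 in match and 192 to 241 in mismatch cells, with COL1A1 alone above the 40th percentile on every array. Endothelial sums of 4 markers were 42.9 to 56.1 in non-treated, 43.8 to 56.2 in dexamethasone, 45.1 to 61.75 in mifepristone, 39.4 to 89.2 in match and 39.3 to 52.8 in mismatch cells. PECAM1 lay above the 40th percentile on all 15 arrays, VWF on 2, and CDH5 and KDR on 1 each. The part of these levels in the results below was not tested. All groups are the same cell line, so these sums are read as array signals and not as shares of cell types. In RNA from many cells, fewer cells with a transcript and less of it per cell cannot be told apart.

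Of the 18 probe sets, 16 were tested, because on at least 3 of the 15 arrays they lay above the 40th percentile of that array, which is a normalized signal of 12.01. The others were IL1A 210118_s_at and CSF1 211839_s_at. A few members were clearly above that level: IL18 lay between the 92.0 and 95.4 percentile on every array, LIF between 69.1 and 80.3, TNFSF15 229242_at between 52.5 and 84.3, and CSF1 209716_at between 59.0 and 74.7. IL6, IL1A, IL1B, TNFSF10, the other CSF1 probe sets and the other IL11 and TNFSF15 probe sets had normalized signals of at most 42.5 on every array. A rank within an array depends on the probes too, so it is no measure of one transcript against another.

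**Figure D1:**
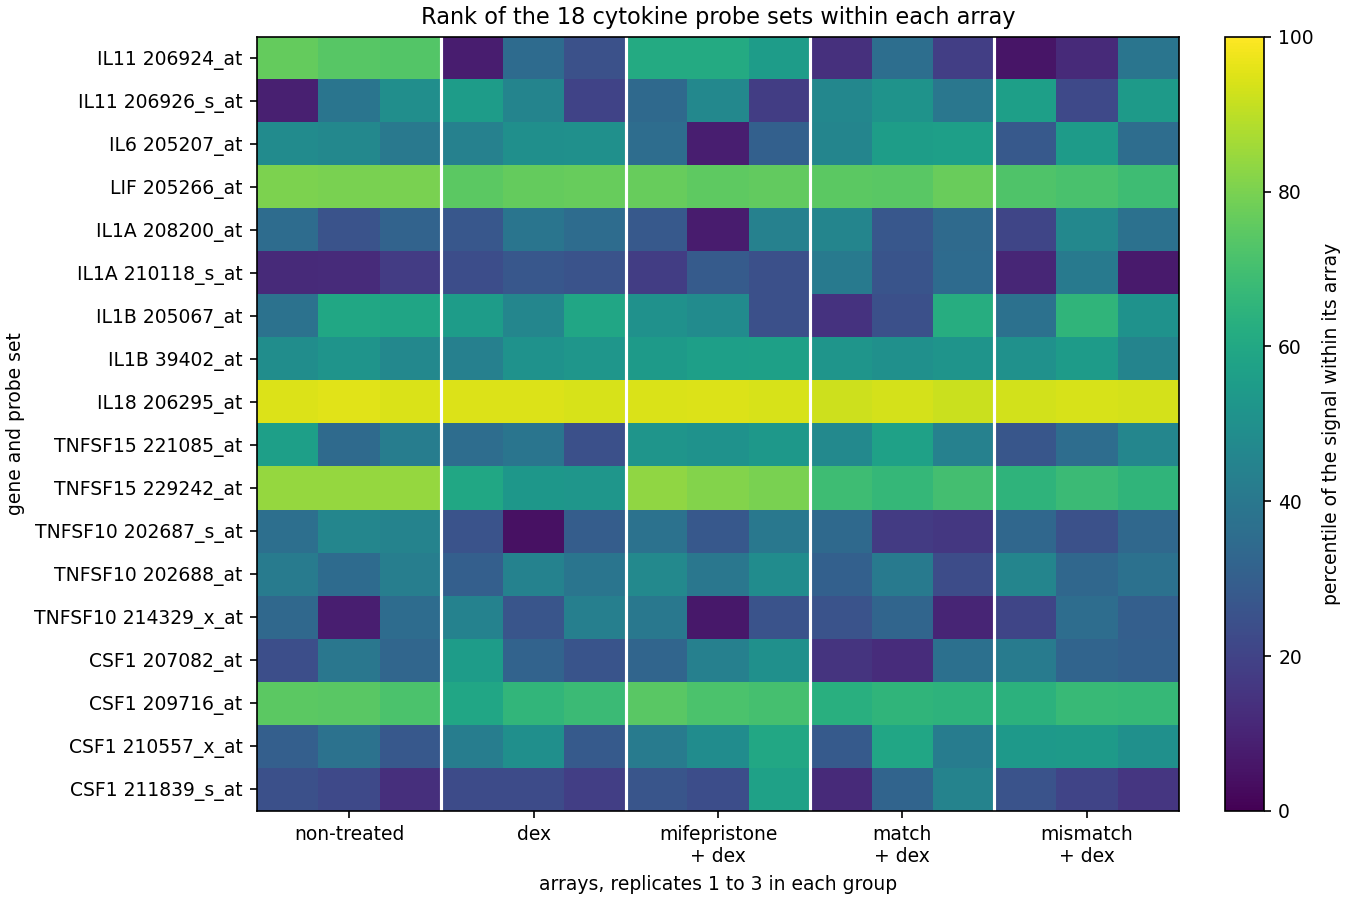
Percentile of each of the 18 probe sets within each of the 15 arrays, with rows for gene and probe set, columns for arrays and white lines between groups. IL18 is near the top on every array, while IL11 206924_at is between the 73.1 and 76.5 percentile in non-treated cells and no higher than the 38.8 percentile with dexamethasone alone or with either polyamide.

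IL11, a cytokine of the gp130 family, gave signals of 102.9, 84.4 and 78.2 in non-treated cells with probe set 206924_at. With dexamethasone the 3 signals were 1.46, 9.65 and 5.53, all below the 40th percentile of their arrays. With mifepristone and dexamethasone they were 32.2, 32.6 and 23.3, between both of those groups and apart from each. With match polyamide they were 2.43, 10.2 and 3.53, and with mismatch polyamide 1.19, 2.05 and 11.4, so both polyamide groups overlapped the dexamethasone arrays. In order of the mean the groups ran mismatch, match, dexamethasone, mifepristone and non-treated, and the lowest 3 did not differ beyond their spread.

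The mean IL11 signal was 88.5 ± 12.8 (SD, n = 3) in non-treated cells and 5.55 ± 4.09 (SD, n = 3) with dexamethasone, a log2 difference of -2.29 (SE 0.218). Since the dexamethasone signals lay at the low end of the array, the size of that difference rests on the added constant, and it was -4.00 with a constant of 1 and -1.13 with 64. Set against the signal of the 40th percentile instead, the non-treated mean was 7.37-fold higher. Mifepristone with dexamethasone gave 29.4 ± 5.27 (SD, n = 3), which was 1.09 (SE 0.218) above dexamethasone alone on the log2 scale and differed from non-treated by -1.20. These values chose the gene, so they carry no test.

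TNFSF15, a TNF-family ligand known from endothelial and epithelial cells, gave 202.7, 200.3 and 203.4 in non-treated cells with 229242_at. Dexamethasone arrays read 29.6, 20.8 and 20.4, and mifepristone arrays 188.5, 157.5 and 135.6. Match arrays read 55.9, 46.7 and 60.7, and mismatch arrays 41.8, 52.5 and 43.0. On this normalized scale no array overlapped between the groups other than match and mismatch, and the order was dexamethasone, mismatch, match, mifepristone and non-treated. The difference of dexamethasone from non-treated was -2.47 (SE 0.140) and that of mifepristone from dexamethasone 2.15 (SE 0.140), given as descriptions because they chose the gene. Against non-treated cells, mifepristone with dexamethasone differed by -0.32 (SE 0.140), match by -1.64 and mismatch by -1.82. As deposited, the mifepristone arrays read 242.1, 219.8 and 151.4 and the non-treated arrays 164.2, 187.2 and 192.4, which overlap. Whether TNFSF15 with mifepristone stayed below non-treated cells thus depends on the scaling.

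CSF1 209716_at followed the order of these genes for dexamethasone and mifepristone with a smaller range. Its signals were 89.1, 85.8 and 70.0 in non-treated cells, 28.4, 44.0 and 52.8 with dexamethasone, and 87.8, 69.5 and 62.6 with mifepristone. Mifepristone and non-treated arrays overlapped and both lay wholly above the dexamethasone arrays. Match arrays read 36.2, 42.6 and 40.6 and mismatch arrays 39.7, 49.4 and 48.2, within the dexamethasone range. Dexamethasone differed from non-treated by -0.78 (SE 0.165) and mifepristone from dexamethasone by 0.64 (SE 0.165). Both contrasts chose the members, so passing or missing the threshold of the fit is a description here and no test. The mifepristone difference no longer passed it without replicate 1 or 2 of dexamethasone or of mifepristone, each left out in turn, where the fit called 2 member probe sets. It also fell short with no filter on low signals and in a fit of the dexamethasone and mifepristone arrays alone.

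LIF, a gp130 cytokine like IL11, read 141.4, 136.8 and 138.7 in non-treated cells and 88.3, 100.8 and 105 with dexamethasone. Mifepristone arrays read 104.7, 93.3 and 98.7, inside the dexamethasone range. On this normalized scale that sets LIF apart in value from IL11, TNFSF15 and CSF1, although the difference between genes was not tested. Match arrays were at 90.2, 87.7 and 110 and mismatch arrays at 73.0, 67.0 and 56.5, the lowest of the 5 groups. Dexamethasone differed from non-treated by -0.44 (SE 0.120) and mifepristone from dexamethasone by 0.01 (SE 0.120). These contrasts chose the members, so the threshold gives no test here either. The dexamethasone difference fell short of it, leaving 3 members called, without any 1 of the 3 non-treated arrays or of dexamethasone replicates 1 and 2. It also fell short with signals as deposited, with array medians centred and with spike-in scaling. The mifepristone difference ran from -0.05 to 0.48 over the 26 alternatives. As deposited, the LIF signals were 134.6, 130.45 and 110.8 with mifepristone and 89.65, 86.3 and 90.9 with dexamethasone. Those do not overlap, so the likeness of the mifepristone and dexamethasone arrays depends on the scaling.

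IL18, an IL-1 family cytokine that epithelia store as a precursor, had the highest rank of the members. Non-treated arrays read 766, 844 and 702, dexamethasone arrays 770.2, 724 and 642, and mifepristone arrays 691, 733 and 647, which all overlap. The dexamethasone difference was -0.11 (SE 0.0918) and the mifepristone difference -0.04 (SE 0.0918). The latter takes its sign from the scaling, since it was 0.40 with signals as deposited and 0.47 with arrays scaled to spike-in probe sets. Match arrays read 520, 595 and 476 and mismatch arrays 556, 627 and 621.

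**Figure D2:**
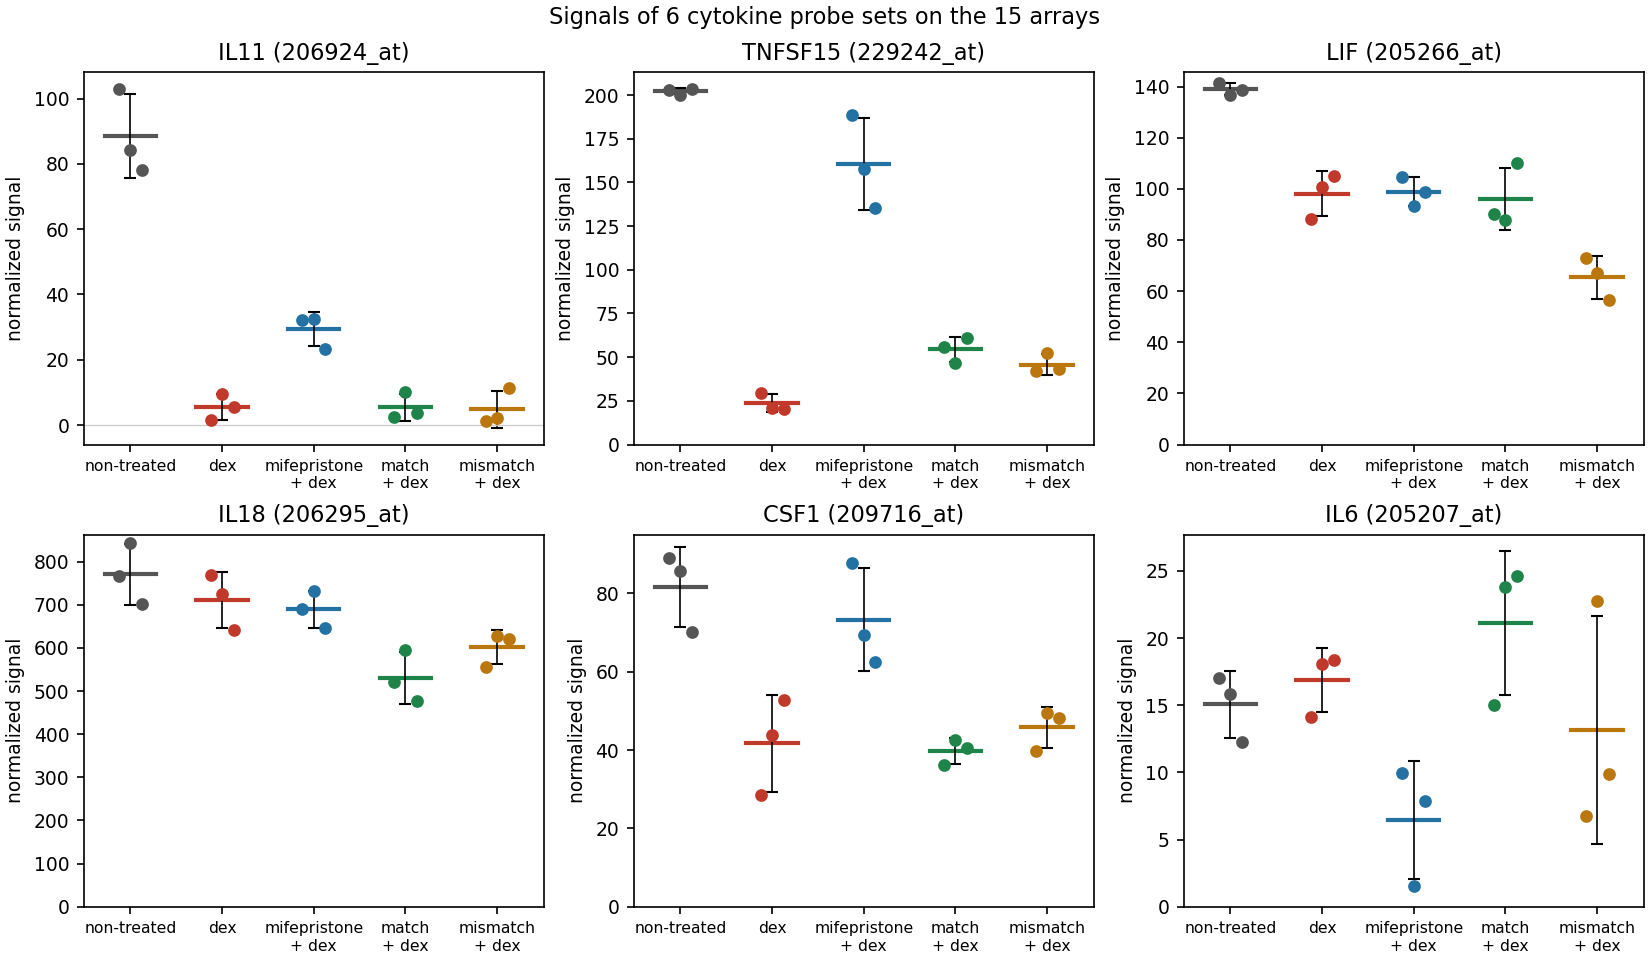
Normalized signal on a linear scale of 6 member probe sets in the 5 groups, with a point for each array, a bar at the mean and whiskers of 1 SD (n = 3). IL11, TNFSF15 and CSF1 are low with dexamethasone and higher with mifepristone, LIF is lowest in mismatch cells, and IL18 is lowest in match cells.

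The remaining members had low signals. IL6, an inducer of acute phase proteins, read 17.1, 15.9 and 12.3 in non-treated and 14.1, 18.1 and 18.4 in dexamethasone cells, which overlap. Its mifepristone arrays, at 9.97, 1.55 and 7.89, were below all of these on the normalized scale and under the 40th percentile. As deposited, the mifepristone arrays read 12.5, 2.06 and 8.83. Those lie below the dexamethasone arrays but overlap the non-treated arrays, at 13.8, 14.1 and 10.3. The IL6 difference of mifepristone from dexamethasone was -0.57 (SE 0.219), not called, in a contrast that chose the members and carries no test. Match arrays of IL6 read 14.99, 23.8 and 24.6 and mismatch arrays 6.76, 22.8 and 9.92, which overlap the dexamethasone arrays. IL1A 208200_at, an alarmin kept inside the cell, had signals of 1.44 to 15.9 over all arrays, with overlap between all groups compared. IL1A 210118_s_at, which was not tested, read 2.09 to 3.33 in non-treated and 5.05 to 6.37 in dexamethasone cells, under the 40th percentile throughout.

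IL1B, a secreted inflammatory cytokine, was measured by a pair of probe sets that did not behave alike. Probe set 205067_at varied widely within groups, from 2.56 to 34.8 in match cells and from 10.6 to 42.5 in mismatch cells. Probe set 39402_at had 13.999 to 20.4 with dexamethasone and 22.6 to 25.1 with mifepristone, apart from each other by 0.25 (SE 0.164). TNFSF10, a ligand of death receptors, had 3 tested probe sets with group means between 4.71 and 15.1. Its probe set 202687_s_at was 10.4 to 15.3 in non-treated cells and 1.03 to 7.31 with dexamethasone, a difference of -0.52 (SE 0.204), while 202688_at differed by -0.04 and 214329_x_at by 0.26.

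For IL11 and TNFSF15 the probe sets of 1 gene also differed. IL11 206926_s_at had group means of 9.56 to 17.1 and a dexamethasone difference of 0.19 (SE 0.302), opposite in sign to 206924_at. TNFSF15 221085_at had a dexamethasone difference of -0.33 (SE 0.211) and a mifepristone difference of 0.54 (SE 0.211), smaller than but of the same sign as those of 229242_at. Neither passed the threshold in any of the 5 comparisons, of which those that chose the members are no test. CSF1 207082_at and 210557_x_at were at most 30.2 on any array, and their dexamethasone differences were 0.17 and 0.22. CSF1 211839_s_at, not tested, had group means of 4.12 to 12.4.

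Of the 16 tested member probe sets, 4 were called lower with dexamethasone than in non-treated cells and 0 higher, at a limma adjusted p under 0.05 over all 39744 tested probe sets. The fit called 2.29% of all probe sets lower and 2.56% higher, or 910 and 1017, and 250 and 564 with signals as deposited. The 4 were IL11, TNFSF15, CSF1 and LIF, 1 probe set each. The median log2 difference of the members was -0.02 against -0.01 over all probe sets. Between mifepristone and dexamethasone, 3 were called higher and 0 lower, with backgrounds of 1.61% and 1.94%, and the member median was 0.14 against 0.01. That background split, 639 higher and 772 lower, was 7910 and 232 with signals as deposited and 12616 and 222 with spike-in scaling. These were IL11, TNFSF15 and CSF1. Both contrasts were used to choose the members, so nothing is read from these counts.

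The comparison of match polyamide with dexamethasone asks whether the polyamide altered these cytokines under dexamethasone, and it shares the dexamethasone arrays with the contrast that chose the members. TNFSF15 rose and IL18 fell, while LIF and CSF1 did not pass the test. IL11 206924_at passed the filter on low signals through its non-treated and mifepristone arrays alone. With dexamethasone, match and mismatch, 0 of 3 arrays in each group lay above the 40th percentile. Its comparisons among those groups are therefore descriptions and no test. TNFSF15 229242_at had a mean of 54.4 ± 7.12 (SD, n = 3) with match and 23.6 ± 5.205 (SD, n = 3) with dexamethasone, a difference of 0.83 (SE 0.140, limma adjusted p = 8.84e-05), higher on 3 of 3 arrays. The match mean stayed 3.71-fold below the non-treated mean of 202. IL18 had a mean of 530.2 ± 59.99 (SD, n = 3) against 712 ± 65.0 (SD, n = 3), a difference of -0.42 (SE 0.0918, limma adjusted p = 0.00129), lower on 3 of 3 arrays. The IL18 call was lost with signals as deposited, at adjusted p = 0.142, and with spike-in scaling, at 0.527, with a range of 4.60e-05 to 0.527 over the 26 alternatives.

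For IL11 the match difference was -0.01 with a 95% interval of -0.47 to 0.44. On signals this low it does not show that the groups were alike. CSF1 209716_at differed by -0.03 (interval -0.37 to 0.32) and LIF by -0.03 (interval -0.28 to 0.22). TNFSF15 221085_at differed by 0.47 (SE 0.211) in the same direction as 229242_at, with a limma adjusted p of 0.106, and it passed with spike-in scaling, at 0.0360. IL1B 205067_at differed by -0.49 (adjusted p = 0.323), and by -0.94 (adjusted p = 0.0309) without match replicate 3. In all, 1 of 16 member probe sets was called higher and 1 lower, against 15.9% and 14.9% of all probe sets. Those 6312 higher and 5940 lower calls became 3774 and 7235 with array medians centred, and 8217 and 2668 with spike-in scaling. Both member shares lie below the background of this fit, so the count is no result about these cytokines.

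Mismatch polyamide with dexamethasone was compared with dexamethasone in the same way. It too shares the dexamethasone arrays with the contrast that chose the members, so the TNFSF15 p-values of both polyamides are not free of that choice. TNFSF15 229242_at rose to a mean of 45.8 ± 5.84 (SD, n = 3), a difference of 0.64 (SE 0.140, limma adjusted p = 0.00185). LIF fell to 65.5 ± 8.37 (SD, n = 3) from 98.1 ± 8.76 (SD, n = 3), a difference of -0.49 (SE 0.120, limma adjusted p = 0.00472). Each was in that direction on 3 of 3 arrays. The LIF call was lost with signals as deposited (adjusted p = 0.173) and with spike-in scaling (adjusted p = 0.121), with a range of 0.00148 to 0.173 over the 26 alternatives. The TNFSF15 calls of both polyamides held in each of these alternatives.

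IL18 was lower with mismatch on all 3 arrays, with a difference of -0.24 (SE 0.0918), but did not pass (limma adjusted p = 0.0727), and it passed without dexamethasone replicate 3, at 0.0330. IL11 differed by -0.06 with an interval of -0.52 to 0.40, which is no test, as both groups lay below the 40th percentile. CSF1 209716_at differed by 0.12 with an interval of -0.23 to 0.46. Of the 16 probe sets 1 was called higher and 1 lower, against 12.0% and 10.9% of all probe sets. The 4783 higher and 4326 lower calls behind these became 4474 and 1763 with signals as deposited. The member shares too lie below the background of this fit.

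The match and mismatch polyamides are the only pair of related compounds in the series, and they were given for the same 48 hours, with doses not stated. What distinguishes their structures is named in the labels by match and mismatch alone. The log2 difference is taken between match and mismatch arrays alone. Its SE and p-value come from the fit of all arrays, the dexamethasone and non-treated arrays among them. The normalization and the filter on low signals used all arrays too. The p-values of this comparison are therefore not free of the arrays that chose the members. LIF was higher with match than with mismatch by 0.46 (SE 0.120, limma adjusted p = 0.0105), with means of 95.9 and 65.5 and no overlap of the arrays. That call was lost without match replicate 3 (adjusted p = 0.0593), without mismatch replicate 3 (0.0606), in a fit of these 6 arrays alone (0.0659), with array medians centred (0.0805) and with signals as deposited (0.284).

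TNFSF15 229242_at differed between the polyamides by 0.19, with an interval of -0.11 to 0.48 (limma adjusted p = 0.427), so a match excess of up to 0.48 on the log2 scale is within the interval. For IL11 the difference was 0.05 (interval -0.41 to 0.51), again no test, as both groups lay below the 40th percentile. For CSF1 209716_at it was -0.15 (interval -0.49 to 0.20) and for IL18 -0.18 (interval -0.37 to 0.01, limma adjusted p = 0.209). With array medians centred, IL18 was lower with match, with a difference of -0.34 (adjusted p = 0.0133). The LIF probe set, 1 of the member probe sets, was called higher and 0 lower, against 7.47% and 9.38% of all probe sets, which is near the background for the higher calls and below it for the lower. The background split of 2969 higher and 3728 lower was 556 and 2538 with signals as deposited, 1280 and 5228 with array medians centred, and 2135 and 712 with spike-in scaling.

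**Figure D3:**
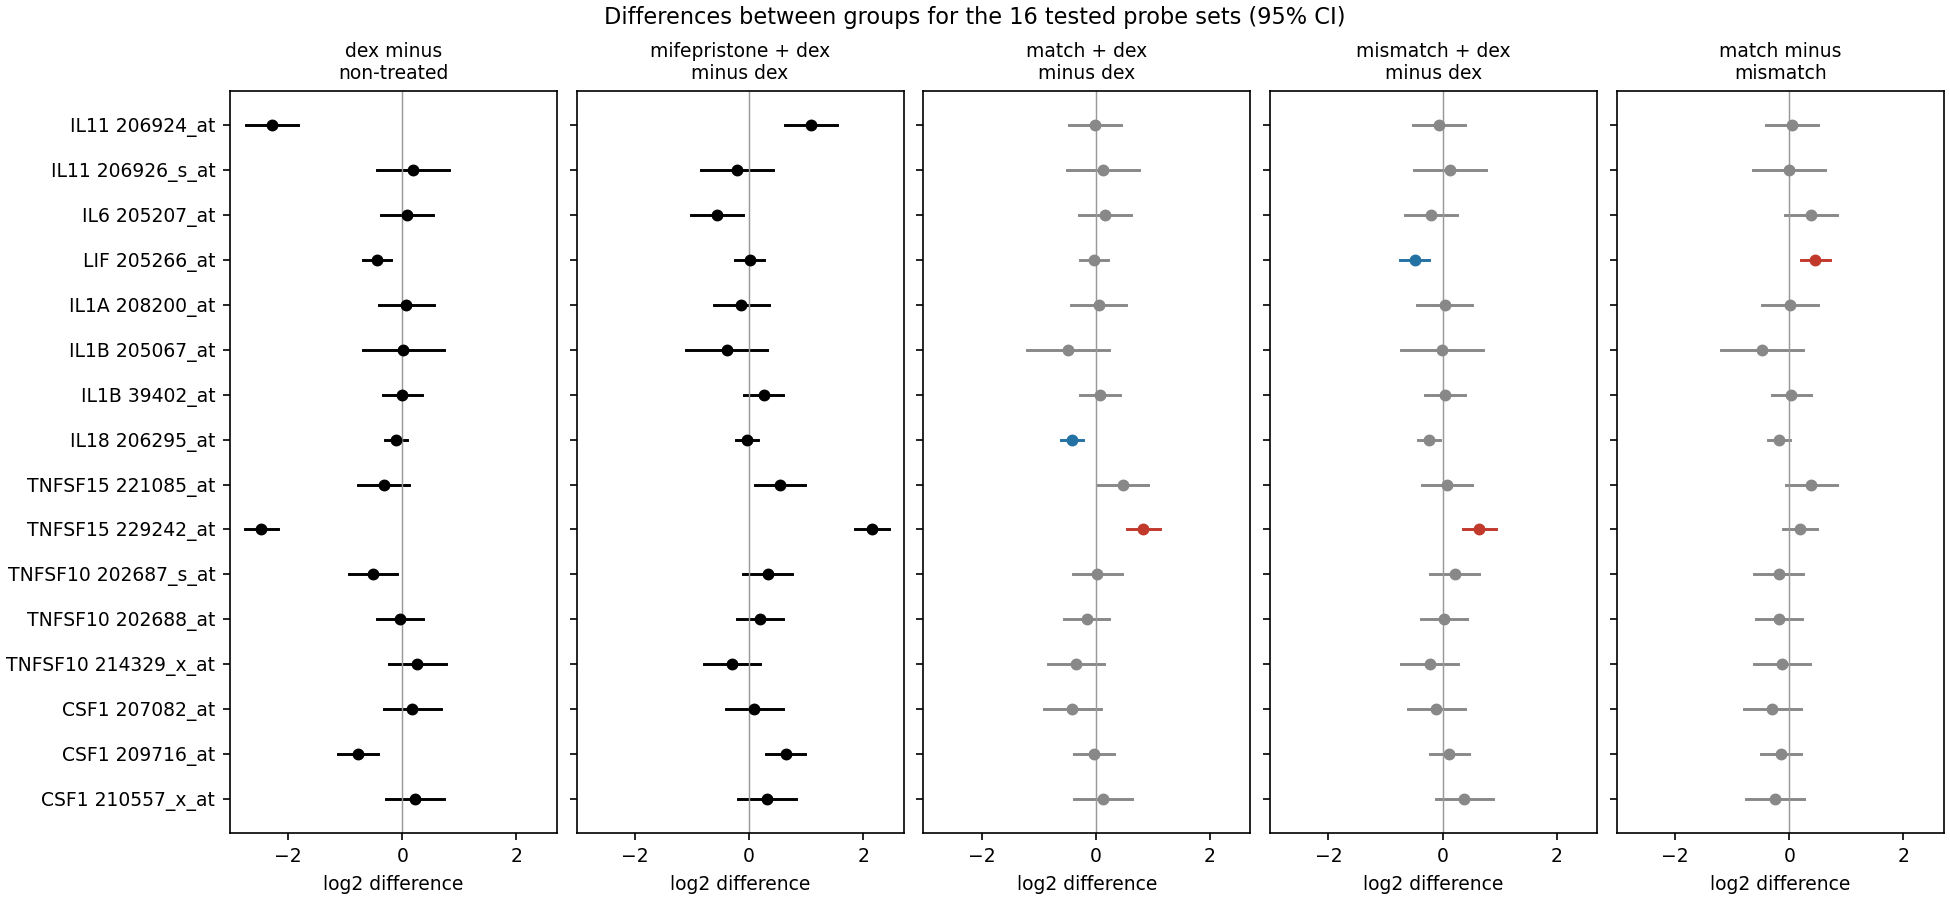
Log2 difference with its 95% interval for the 16 tested member probe sets in 5 comparisons. Black marks the comparisons used to choose the genes, red a called rise, blue a called fall and grey no call. TNFSF15 229242_at is called with both polyamides, IL18 with match against dexamethasone, and LIF with mismatch against dexamethasone and with match against mismatch.

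The other genes of these pathways were taken from 4 lists, with 1 probe set per gene. Their counts stand beside the shares of all probe sets called higher and lower, and medians beside that over all genes. The lists too were chosen with earlier results of these data known, so their counts and p-values are no independent support. The list of gp130 receptors and signalling had 15 tested genes. With dexamethasone 6 rose and 1 fell against non-treated cells, beside 2.56% and 2.29% of all probe sets, with a list median of 0.20 against -0.04 over all genes. With spike-in scaling 4 rose and 0 fell. IL6R, the receptor of IL6, rose by 1.39 (SE 0.158, limma adjusted p = 4.49e-06). LIFR, the receptor of LIF, rose by 1.20 (SE 0.184, limma adjusted p = 0.000197). IL6ST itself rose by 0.55 (limma adjusted p = 1.83e-05, but 0.122 with spike-in scaling), and SOCS3, a feedback inhibitor of JAK signalling, by 0.82 (limma adjusted p = 6.09e-05). Thus IL6R, LIFR and IL6ST were higher in the group in which IL11 and LIF were lower. That is a description, since this contrast chose the members, and a relation between these genes was not tested.

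With mifepristone against dexamethasone, 1 gene of the gp130 list rose and 8 fell, beside 1.61% and 1.94% of all probe sets, with a list median of -0.26 against 0.02. The differences of SOCS3 (-0.75, limma adjusted p = 0.000247), its relative SOCS1 (-1.30, 0.000744), IL6R (-0.90, 0.00123) and LIFR (-1.01, 0.00170) were the most certain. With signals as deposited or spike-in scaling 2 rose and 1 fell, and of these 4 genes SOCS1 alone kept its call. Without a variance trend 0 rose and 5 fell. SOCS1 itself was near the low end of the array in mifepristone cells, with a mean of 7.10.

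With match against dexamethasone, 1 gene of the gp130 list rose and 8 fell, beside 15.9% and 14.9% of all probe sets (median -0.44 against 0.05). With mismatch 1 rose and 7 fell, beside 12.0% and 10.9% (median -0.16 against 0.07), but 1 rose and 2 fell with signals as deposited, and 1 rose and 3 fell with spike-in scaling. IL6ST fell by 1.61 (SE 0.0699, limma adjusted p = 5.72e-13) with match and fell by 0.68 (limma adjusted p = 4.56e-07) with mismatch. JAK1, a kinase bound to gp130, fell by 1.07 with match (limma adjusted p = 9.19e-10). With mismatch JAK1 fell by 0.51 (limma adjusted p = 3.93e-05), a call lost with signals as deposited (0.201) and with spike-in scaling (0.0924). LIFR fell by 1.68 with match (limma adjusted p = 4.25e-07) and fell by 1.48 with mismatch (4.93e-06). SOCS3 fell by 0.78 with match (limma adjusted p = 1.59e-05) and fell by 0.48 with mismatch (0.00347, but 0.294 with signals as deposited and 0.189 with spike-in scaling). IL6R fell by 0.99 with match (limma adjusted p = 4.85e-05) and fell by 0.69 with mismatch (0.00265, and 0.0665 with signals as deposited). The mismatch value of SOCS3 and the match value of IL6R lay outside the rule for named genes and are given so that both polyamides are shown.

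Between match and mismatch, IL6ST differed by -0.93, with means of 786 with match and 1517 with mismatch (limma adjusted p = 1.68e-08). JAK1 was lower too, with a difference of -0.55 (adjusted p = 3.16e-05, and 0.0855 with spike-in scaling). In all 1 gene of the list was higher and 3 were lower, beside 7.47% and 9.38% of all probe sets, with a list median of -0.18 against -0.02. With spike-in scaling 0 were higher and 1 was lower. The others were PTPN11, a phosphatase of the pathway, at 0.27 (limma adjusted p = 0.00112, but 0.833 with signals as deposited, 0.629 with medians centred and 0.119 with spike-in scaling), and JAK2. JAK2 differed by -0.71 (adjusted p = 0.0215), which was lost without match replicate 3 (0.103) and without mismatch replicate 1 (0.116). It was also lost with trimmed-mean (0.0502) and spike-in scaling (0.141).

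Of 15 tested genes of IL-1 and IL-18 receptors and signalling, 0 passed with dexamethasone against non-treated (list median -0.06 against -0.04) and 0 with mifepristone against dexamethasone (-0.02 against 0.02). In the mifepristone comparison 3 rose with signals as deposited and 6 with spike-in scaling, where 0 fell. With match 5 rose and 1 fell, beside 15.9% and 14.9% of all probe sets (median 0.14 against 0.05), but 2 rose and 1 fell with signals as deposited or array medians centred. With mismatch 5 rose and 1 fell, beside 12.0% and 10.9% (0.20 against 0.07). IL1R1, the signalling receptor of IL1A and IL1B, was the gene that fell, by 1.03 (SE 0.0914, limma adjusted p = 2.09e-08) with match, while with mismatch it fell by 1.17 (SE 0.0914, limma adjusted p = 1.08e-08). IL18R1, a receptor chain of IL18, rose by 0.99 with match (limma adjusted p = 0.000460), from a low mean of 11.46 to 39.1. With mismatch, added though outside the rule for named genes, it rose by 0.995 (limma adjusted p = 0.000748), to 38.8. IRAK2, a kinase of the pathway, rose by 0.94 with match (limma adjusted p = 1.81e-07) and by 0.58 with mismatch (0.000144). IRAK1 rose by 0.35 with match (limma adjusted p = 0.000612, but 0.142 with medians centred and 0.0545 with signals as deposited) and by 0.46 with mismatch (7.46e-05).

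MYD88, the adaptor of these receptors, rose by 0.55 with mismatch (limma adjusted p = 0.000356). It was lower with match than with mismatch, at means of 380 and 558, a difference of -0.53 (limma adjusted p = 0.000748, and 0.217 with spike-in scaling). In that comparison 1 gene of the list was higher and 2 were lower, beside 7.47% and 9.38% of all probe sets (median 0.14 against -0.02). With signals as deposited these were 0 and 1, and with spike-in scaling 1 and 0. IRAK2 was higher by 0.36 (adjusted p = 0.0133, and 0.0769 without mismatch replicate 1). It also lost the call with signals as deposited (0.585), medians centred (0.189) and spike-in scaling (0.0884). IRAK3, an inhibitory relative, was lower with a difference of -0.75 (adjusted p = 0.0455). Its call was lost in 18 of the 25 alternatives that tested it, without each of 9 arrays among them, at an adjusted p of 0.0503 to 0.195.

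Of 12 tested genes of TNF superfamily receptors and signalling, 7 rose and 0 fell with match, beside 15.9% and 14.9% of all probe sets (median 0.32 against 0.05). With signals as deposited or medians centred 3 rose with match. With mismatch 4 rose and 0 fell, beside 12.0% and 10.9% (0.12 against 0.07), and 2 rose with spike-in scaling. FAS, a death receptor, rose by 1.17 (SE 0.0850, limma adjusted p = 1.15e-09) with match and by 0.95 (SE 0.0850, limma adjusted p = 6.56e-08) with mismatch. TNFRSF10B, a receptor of the TNFSF10 ligand, rose by 0.93 with match (limma adjusted p = 1.97e-09) and by 0.87 with mismatch (1.63e-08). TNFRSF10A, another receptor of it, rose by 1.00 with match (limma adjusted p = 3.54e-06). With mismatch TNFRSF10A rose by 0.44 (limma adjusted p = 0.0174), a call that leaving out dexamethasone replicate 2 (0.0504) or 3 (0.0697) or mismatch replicate 3 (0.0823) ended. It was also lost with array medians centred (0.0536) and with spike-in scaling (0.141). TNFRSF25, the receptor of TNFSF15, differed by 0.16 with match (interval -0.39 to 0.71), not past the test. TNFRSF25 was outside the rule for named genes and was added because it is the receptor of TNFSF15.

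FADD, an adaptor of death receptors, rose by 0.37 with match (limma adjusted p = 0.00312, but 0.0890 with signals as deposited and 0.163 with medians centred). TRADD, an adaptor of TNF receptors, rose by 0.43 with mismatch (limma adjusted p = 0.00846, and 0.112 with spike-in scaling). Between match and mismatch, 4 genes were higher and 1 was lower, beside 7.47% and 9.38% of all probe sets (median 0.20 against -0.02). These counts were 0 and 1 with signals as deposited, 2 and 1 with medians centred, and 3 and 0 with spike-in scaling. FADD was higher by 0.51 (limma adjusted p = 0.000434), TNFRSF10A by 0.56 (0.00395) and CASP8, the caspase of these receptors, by 0.39 (0.00610). TRADD was lower, with means of 128 and 189 and a difference of -0.51 (limma adjusted p = 0.00307). With signals as deposited FADD, TNFRSF10A and CASP8 lost these calls (adjusted p = 0.197, 0.215 and 0.484), and CASP8 also with medians centred (0.0996), while TRADD lost it with spike-in scaling (0.249).

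With dexamethasone against non-treated cells, 1 gene of the TNF list fell and 0 rose, beside 2.29% and 2.56% of all probe sets (median 0.01 against -0.04). With mifepristone against dexamethasone 1 rose and 0 fell, beside 1.61% and 1.94% (-0.11 against 0.02), but 4 rose with signals as deposited and 6 with spike-in scaling. Both were TNFRSF10B, at -0.26 (adjusted p = 0.0321) and 0.26 (adjusted p = 0.0432) by limma. The dexamethasone call was lost without any 1 of the 3 non-treated arrays or dexamethasone replicates 1 or 2 (adjusted p = 0.0523 to 0.183). Over all 26 alternatives it was lost in 10, at up to 0.811 with signals as deposited. The mifepristone call was lost without any 1 of 8 arrays (non-treated replicates 1 and 3, dexamethasone replicates 1 and 2, the 3 mifepristone arrays and mismatch replicate 3), at adjusted p = 0.0525 to 0.210 by limma, and in 13 of the 26 alternatives in all, at up to 0.228 with medians centred.

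Of 10 tested genes of other epithelial cytokines and the CSF1 receptor, 0 rose and 1 fell with dexamethasone, beside 2.56% and 2.29% of all probe sets (median -0.07 against -0.04). TNFSF9, a costimulatory TNF-family ligand, fell by 1.01 (SE 0.140, limma adjusted p = 5.85e-05), from a mean of 157 to 70.0. With mifepristone 1 rose and 0 fell, beside 1.61% and 1.94% (-0.02 against 0.02), or 2 and 0 with spike-in scaling, and it was TNFSF9 at 0.53 (limma adjusted p = 0.0374), a call lost without non-treated replicate 3, any dexamethasone array or mifepristone replicates 1 or 2, and in 10 of the 26 alternatives in all (0.0508 to 0.187). With match 2 rose and 1 fell, beside 15.9% and 14.9% (0.14 against 0.05), but 0 rose and 1 fell with signals as deposited or medians centred. With mismatch 0 rose and 1 fell, beside 12.0% and 10.9% (0.17 against 0.07), and 4 alternatives called 1 rise as well. IL15, a growth factor of lymphocytes, fell by 0.66 with match (limma adjusted p = 9.53e-05, and 0.0694 with spike-in scaling) and fell by 1.08 with mismatch (4.67e-07). TNFSF9 rose by 0.52 with match (limma adjusted p = 0.00619, but 0.0853 with signals as deposited and 0.103 with medians centred). TNFSF13 rose by 0.46 with match (limma adjusted p = 0.0366). That call was lost without any 1 of the 6 arrays compared and in 10 of the 26 alternatives in all (0.0526 to 0.117). With mismatch, TNFSF9 and TNFSF13 were not called in the main fit. Over the 26 alternatives the mismatch difference was 0.25 to 0.49 for TNFSF9, called in 3, and 0.19 to 0.62 for TNFSF13, called in 1. Between the polyamides 1 gene was higher and 0 lower, beside 7.47% and 9.38% (0.10 against -0.02). It was IL15, by 0.42 (limma adjusted p = 0.0115), a call lost without match replicate 1 (0.0651), with signals as deposited (0.407), medians centred (0.0977) or spike-in scaling (0.0558), and in a fit of the 2 groups alone (0.0605).

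**Figure D4:**
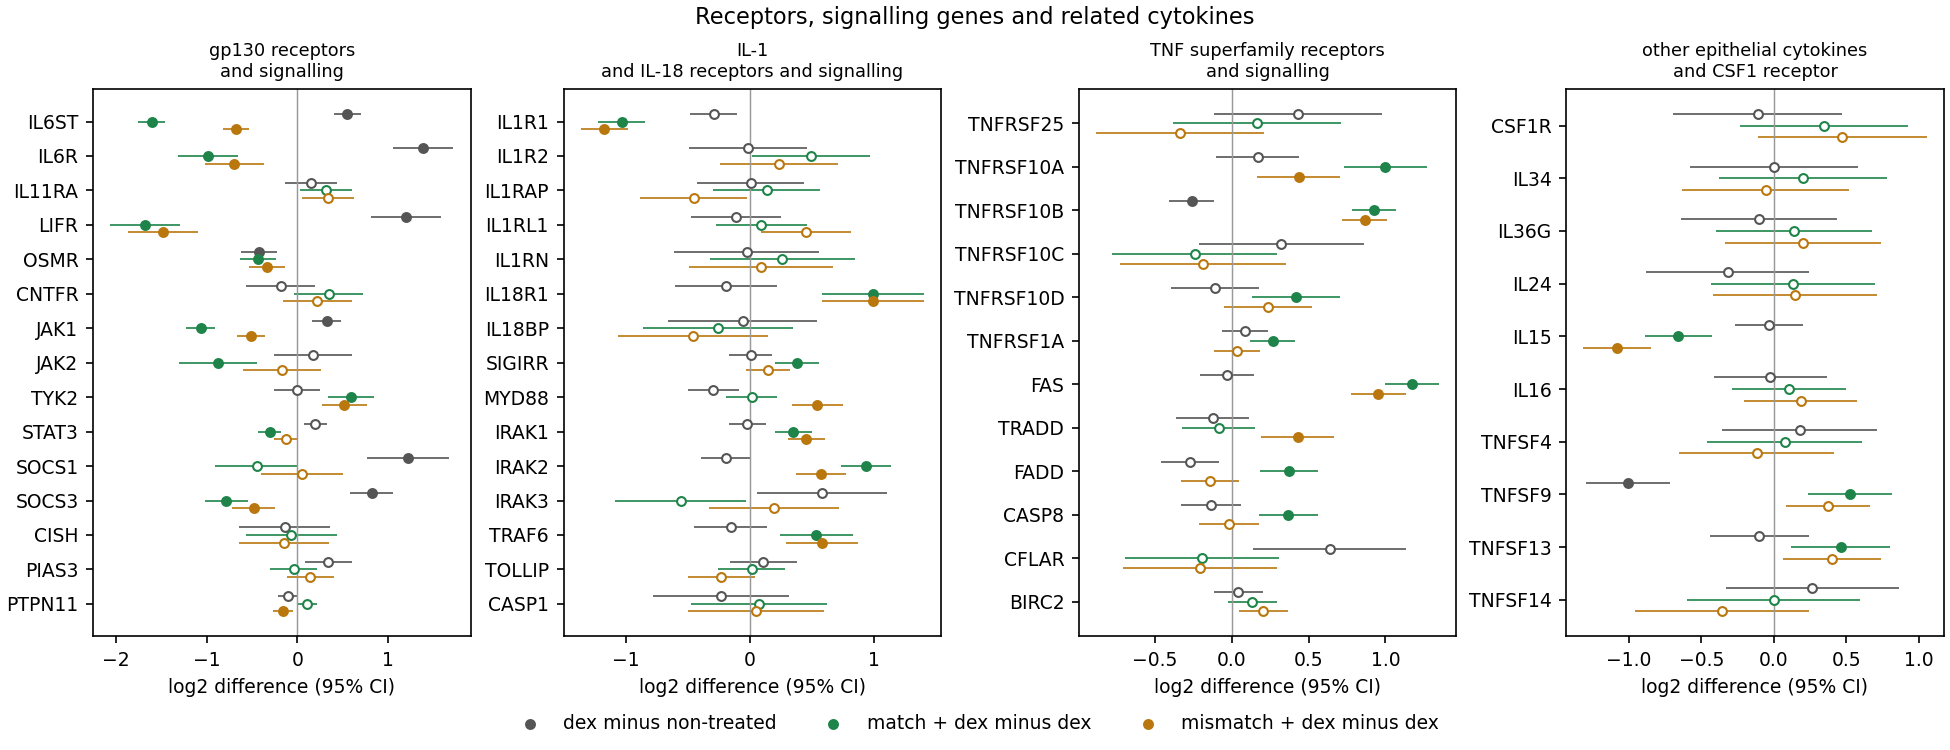
Log2 difference with its 95% interval for the tested genes of 4 lists, in dexamethasone against non-treated (grey), match against dexamethasone (green) and mismatch against dexamethasone (orange); filled points were called and each panel has its own scale. IL6ST, LIFR and IL6R lie right of 0 for dexamethasone and left of 0 for both polyamides, and FAS and TNFRSF10B lie right of 0 for both polyamides.

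The genes most like IL11 206924_at over the 15 arrays, among 16357 compared, were NECTIN3 (Pearson r = 0.937, Spearman rho = 0.882), ZBED5 (0.932 and 0.821), USP12 (0.931 and 0.743), PFKFB3 (0.929 and 0.768) and TRIM16 (0.928 and 0.786). Those most like TNFSF15 229242_at were ZBED5 (r = 0.971, rho = 0.939), TMEM65 (0.971 and 0.936), NCOA7 (0.951 and 0.864), TFAP2A (0.947 and 0.868) and LONRF2 (0.935 and 0.907). ZBED5, which stood in both sets, had mean signals of 742 in non-treated, 418 in dexamethasone, 655 in mifepristone, 472 in match and 454 in mismatch cells. The points of each correlation are the same 15 arrays in 5 groups, with shared labelling and scaling, and the genes were picked as the highest of many, so the values are a description.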

How the data were processed

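RNA of A549 cells was hybridized to Affymetrix arrays after biotin labelling, per the labels' protocols. The deposited values are intensity signals on a linear scale that the authors made with MAS5, per the submitters' processing notes; which version and which scaling target were used is not given there. Arrays were quantile normalized here because their trimmed means differed, and log2(signal + 16) was taken. Without the 62 control probe sets, 39744 probe sets (72.7%) with at least 3 of 15 arrays above the 40th percentile of their array were tested. The fit, by limma 3.58.1 under R 4.3.3, took all arrays with a mean per group and a variance trend (degrees of freedom: 10 residual, 9.36 prior). In each of 5 comparisons p-values received the Benjamini-Hochberg adjustment across all tested probe sets and were called under 0.05. With 3 arrays a group, precision is limited by their number. The fit was tested on simulated data.

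Members and lists were chosen with earlier results of these data known. Contrasts used for that choice carry no p for members. The text names all member probe sets, up to 4 called genes per list and comparison with the smallest adjusted p, and the 5 genes most like IL11 and TNFSF15. Each listed gene had 1 probe set. Of the annotation, 1801 probe sets have several symbols and 11777 none, and none of these was named. Sequences are from RefSeq (GRCh38.p14). Of 26 alternatives, 15 leave out 1 array each and 11 change the scaling, the pseudocount, the filter, the variance model, the arrays fitted or the replicate block.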

Additional observations from a re-analysis of the deposited data

How the results depend on the processing

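The numbers of member probe sets called moved by over 1.5 times in few settings. With signals as deposited it was 1 for match against dexamethasone, 1 for mismatch against dexamethasone and 0 for match against mismatch. With spike-in scaling it was 7 for mifepristone against dexamethasone and 1 for mismatch against dexamethasone, and in a fit of the 2 groups alone 0 for match against mismatch. Leaving out 1 array at a time gave 3 to 4 for dexamethasone against non-treated, 2 to 3 for mifepristone, match and mismatch against dexamethasone, and 0 to 1 for match against mismatch. Here 0 came from match replicate 3 or mismatch replicate 3, with an unadjusted p of 0.00110 for LIF in the fit of all arrays.

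Of all probe sets, signals as deposited called 814 (564 higher and 250 lower) for dexamethasone against non-treated, where the main setting called 1017 higher and 910 lower. They called 8142 (7910 higher) for mifepristone, 7978 for match and 3094 (556 higher, 2538 lower) for match against mismatch, against 1411, 12252 and 6697. Spike-in scaling called 767, 12838 (12616 higher), 4624 for mismatch and 2847 (2135 higher, 712 lower) for match against mismatch. Relative to the main setting, the median of all probe sets shifted by 0.34 as deposited and 0.39 with spike-in scaling for mifepristone, by 0.20 for match and 0.15 for match against mismatch with spike-in scaling, and by 0.12 for mismatch as deposited. Leaving out 1 array gave 1430 to 2031, 1006 to 1483, 10811 to 12334, 7530 to 9370 and 5384 to 6756 in the order dexamethasone, mifepristone, match, mismatch and match against mismatch. Arrays differ in scale, so mifepristone differences depend most on scaling, and the cause was not tested.

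Signs turned, with a call in at least 1 of the settings, with spike-in scaling for mifepristone against dexamethasone in IL18 (0.47), IL15 (0.51), IRAK1 (0.42), IL6ST (0.15) and JAK1 (0.0647), with signals as deposited in IL6ST (0.0831), and for mismatch against dexamethasone in PTPN11 (0.0644). Whether the replicate numbers pair the arrays is not settled by these values. Deviations of arrays with the same number correlated at -0.0836 to 0.116, with a median of 0.0085. For different numbers these were -0.132 to 0.135, with a median of 0.0025, and 8 of 15 arrays were closest to their own number. With the replicate number as a block, IL18 passed for mismatch against dexamethasone (-0.24, limma adjusted p = 0.0330), so 3 member probe sets were called, and the other member calls did not change. Of 4965 other values of members and named genes, 4606 kept both sign and side of the threshold, or for untested members moved by less than the spread. Another 139 lost and 26 gained the call, 35 moved with the same sign, and 7 changed sign as listed. The remaining 152 changed sign with no call in either setting, 52 of them under another scaling and 95 without 1 array, the IL11, LIF and CSF1 differences of match from dexamethasone among them. Signals of IL11 with dexamethasone and of IL6, IL1A, IL1B and TNFSF10 lie near the low end of the arrays, which limits what a difference there can show.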
